A study of Homo sapiens with 12 samples.

Results

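Keratin genes were examined in RNA sequencing libraries of 3 established human cancer cell lines. The genes were chosen by name alone. Every row of the count table whose symbol is KRT followed by a number and, at most, one of the letters A, B or C was taken, and symbols of pseudogenes were left out. The rule gave 55 of 57500 genes, of which 29 encode type I and 26 encode type II keratins.

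Each of 4 groups had 3 biological replicates, 12 libraries in all. SW480 is a line from a primary colorectal cancer, and SW620 was derived from a metastasis of the same patient. Both grew untreated in DMEM. PEO4 is an ovarian cancer line that grew in RPMI 1640, either as control or with recombinant human TGF-β at 10 ng/mL for 6 days. All media held 10% FBS and 1% penicillin/streptomycin, and total RNA was sequenced after removal of ribosomal RNA and DNase treatment. Each line stands for 1 patient, and the 2 SW lines differ in their site of origin and in all else that separates them in culture. The labels give 3 biological replicates a group without saying how they were separated, so p-values measure the spread between those samples.

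Keratins are the intermediate filament proteins of epithelial cells. A filament is built from pairs of 1 type I and 1 type II keratin, and the pair depends on the kind of epithelium. Simple epithelia such as gut and the lining of ducts use KRT8 with KRT18, with KRT19, KRT7 and KRT20 added in a tissue-dependent way. Stratified epithelia use KRT5 with KRT14 in their basal layer and other pairs above it, or KRT4 with KRT13 where the surface is moist, and hair keratins build the hair shaft. Pathologists use KRT7 and KRT20 to tell the origin of carcinomas, and an intestinal tumour is typically low in KRT7 while an ovarian one is typically high. TGF-β is a cytokine that can drive epithelial cells toward a mesenchymal state, in which keratins are typically lowered and vimentin raised.

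By these roles, 7 of the 55 genes were classed as simple epithelial, 21 as stratified epithelial, 26 as hair and inner root sheath (the layer around a growing hair) and 1, KRT222, as other. In GENCODE 29 (GRCh38), all 26 type II genes and the type I gene KRT18 lie on chromosome 12, and the other 28 type I genes lie on chromosome 17. The classes describe where a keratin is best known and were not read from these libraries.

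The libraries held 14531420 to 22028956 counts. A count of 3 was taken as the floor of detection. Scaled to 1000000 counts in all (CPM), that is 0.136 to 0.206 depending on the library. Markers of the labelled tissues were read as a check. The 6 colorectal markers (CDX1, CDX2, VIL1, CDH17, GPA33 and EPCAM) were above the floor in at least 1 library of SW480 and of SW620, although CDX1 averaged only 0.196 and 0.156 CPM, and CDX1, CDX2, CDH17 and GPA33 were at or under it in PEO4. Of the 6 Müllerian and ovarian markers, 5 were above the floor in PEO4 control, MECOM being the exception, and all 6 were above it in the SW lines. Their summed level, mostly MUC16, was 4370 to 7590 CPM in PEO4 control against 77.5 to 123 CPM in the SW lines. In PEO4 control against the SW lines, 4 of the 6 were higher, while SOX17 (1.46 CPM in PEO4 control) and MECOM (0.102 CPM) were lower by edgeR. Of all genes tested there, 28.9% were higher and 29.1% lower.

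A small share of reads of one line may have been carried over into libraries of another. It was estimated from genes that are high in the donor group and at most 3 counts in the other libraries of the recipient group. SW620 replicate 3 held an estimated 0.862% of PEO4 control reads (10 genes, 210 counts) or, taking TGF-β-treated PEO4 as the donor, 1.13%. SW480 replicates 1 and 2 held 0.253% and 0.333% of PEO4 control reads. PEO4 control replicate 3 held 0.359% of SW480 reads or 0.945% of SW620 reads, and PEO4 TGF-β replicate 3 held 0.661% of SW620 reads. Between SW480 and SW620 fewer than 3 such genes were found, so no share was estimated. The larger expected counts are given beside the keratins they touch, and their part in the result was not tested.

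Many keratin genes had few or no counts. Of the 55, 4 had 0 counts in every library (KRT2, KRT26, KRT27 and KRT73), and 20 had at most 3 counts in every library. Those 20 include KRT14, the basal-layer partner of KRT5, with at most 2 counts in a library. The remaining genes were unevenly spread over the groups. A mean of at least 1 CPM was reached by 25 keratins in SW480, 14 in SW620, 15 in PEO4 control and 15 in PEO4 TGF-β. A mean of at least 100 CPM was reached by 6, 4, 7 and 8 keratins in the same order.

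**Figure D1:**
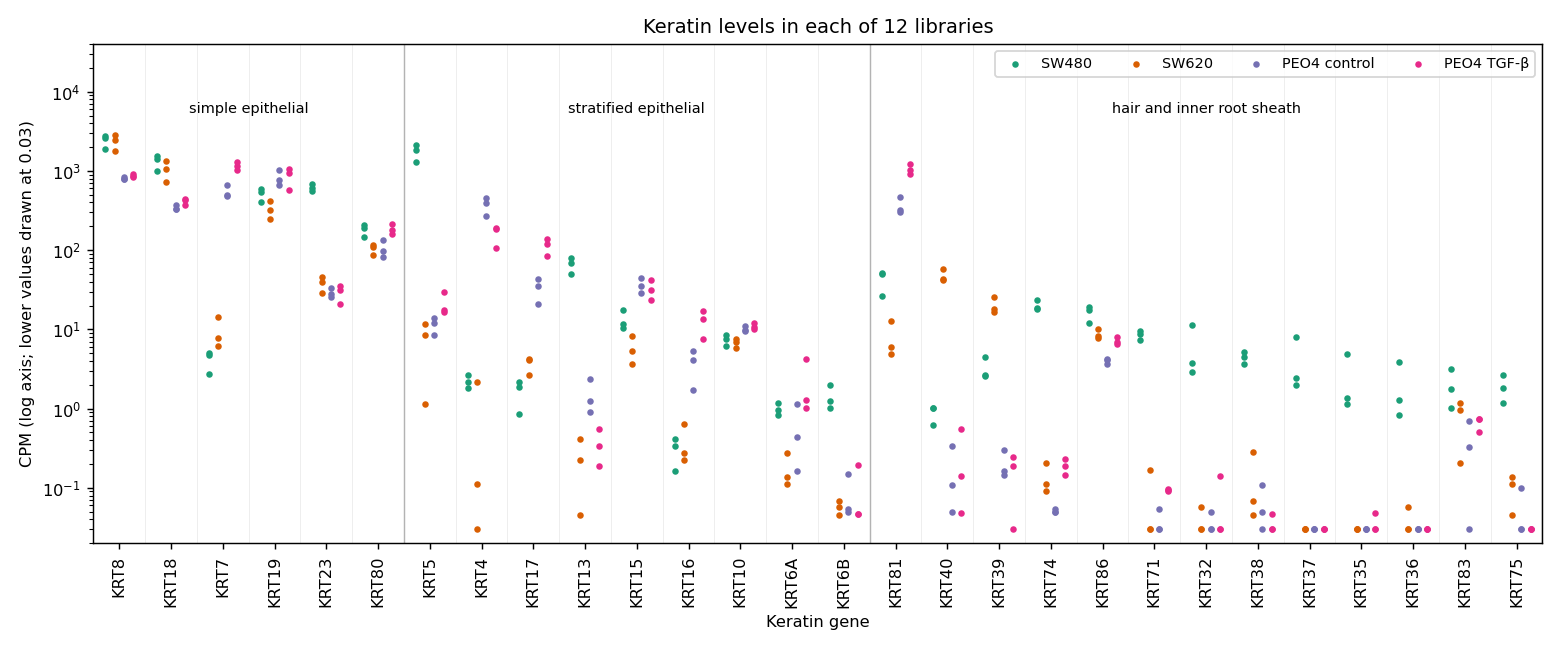
CPM of the 28 keratins with a group mean of at least 1 CPM, on a log axis, 1 point per library and 1 colour per group, sorted by role and by highest group mean. KRT8 lies between 791 and 2880 CPM in all 12 libraries, KRT5 spans from 2120 CPM in SW480 to 1.13 CPM in SW620, and of the hair class KRT71, KRT74, KRT75, KRT32 and KRT35 to KRT38 pass 1 CPM only in SW480.

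To compare genes with each other, levels were also divided by exon length (RPKM, CPM per kilobase of merged exon). In SW480 the highest were KRT18 at 413 ± 87.4 RPKM (SD, n = 3), KRT5 at 406 ± 98.3, KRT8 at 352 ± 65.4, KRT19 at 218 ± 39.2 and KRT23 at 213 ± 21.0. The ranges of the first 3 overlapped, as did those of KRT19 and KRT23, so no order within either set was resolved. In SW620 the order was KRT8 at 346 ± 81.4 RPKM, KRT18 at 323 ± 93.4, KRT19 at 140 ± 36.8, KRT80 at 23.9 ± 3.48 and KRT40 at 21.4 ± 4.10, where KRT8 overlapped KRT18 and KRT80 overlapped KRT40. In PEO4 control KRT19 led at 349 ± 81.0 RPKM, above all libraries of KRT81 at 190 ± 47.7. KRT7 at 133 ± 23.3, KRT8 at 117 ± 3.12, KRT4 at 113 ± 28.4 and KRT18 at 107 ± 7.84 followed with overlapping ranges. With TGF-β the first place by this length went to KRT81 at 544 ± 79.6 RPKM, whose lowest library (474) was above the highest of KRT19 (451). KRT19 stood at 366 ± 105, KRT7 at 283 ± 34.5, KRT18 at 128 ± 11.6 and KRT8 at 127 ± 6.24. These orders, and the shares below, rest on merged exon length. For KRT81 the longest coding transcript is as long (1929 bases). It is 1390 against 2336 bases for KRT19 and 1754 against 4093 for KRT7. With that length both would gain on KRT81, so its place in the PEO4 groups is not settled. By CPM with TGF-β, the libraries of KRT7 (1160 ± 141) and KRT81 (1050 ± 154) overlapped.

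The summed keratin level was 1730 ± 314 RPKM in SW480, 896 ± 211 in SW620, 1070 ± 128 in PEO4 control and 1610 ± 210 in PEO4 TGF-β (SD, n = 3). Neither pair of groups overlapped. The 3 SW480 libraries gave 1870, 1370 and 1950 RPKM against 914, 677 and 1100 in SW620, and the 3 treated PEO4 libraries gave 1790, 1660 and 1380 against 1220, 1010 and 983. With 3 libraries against 3 an exact permutation test cannot go below p = 0.1, so these sums are given without a test. In bulk RNA, fewer cells that express a keratin and less keratin RNA per cell cannot be told apart.

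The make-up of that sum also differed. Simple epithelial keratins were 71.7 ± 1.23% of it in SW480, 94.4 ± 2.12% in SW620, 69.0 ± 1.47% in PEO4 control and 59.4 ± 1.19% in PEO4 TGF-β. Stratified keratins were 25.1 ± 1.64% in SW480 and 0.872 ± 0.288% in SW620. In PEO4 they were 13.2 ± 3.58% in control and 6.62 ± 1.21% with TGF-β, where the 3 control libraries (9.22, 14.3 and 16.1%) lay above the 3 treated ones (5.23, 7.36 and 7.29%). The hair and inner root sheath class had 17.8 ± 2.20% in PEO4 control and 34.0 ± 1.70% with TGF-β, almost all of it KRT81, whose own share was 17.6 ± 2.20% in control and 33.8 ± 1.68% with TGF-β. KRT5 alone made up 23.3 ± 1.76% of the SW480 sum and 0.214 ± 0.188% of that of SW620. These are shares, and the levels of a class can move otherwise. Simple keratins summed to 1240 ± 212 RPKM in SW480 and 849 ± 216 in SW620. In PEO4 they summed to 741 ± 104 RPKM in control and 957 ± 137 with TGF-β, and both pairs overlapped. Stratified keratins summed to 112, 145 and 158 RPKM in the PEO4 control libraries. With TGF-β they summed to 93.8, 122 and 101 RPKM, so the levels overlapped.

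**Figure D2:**
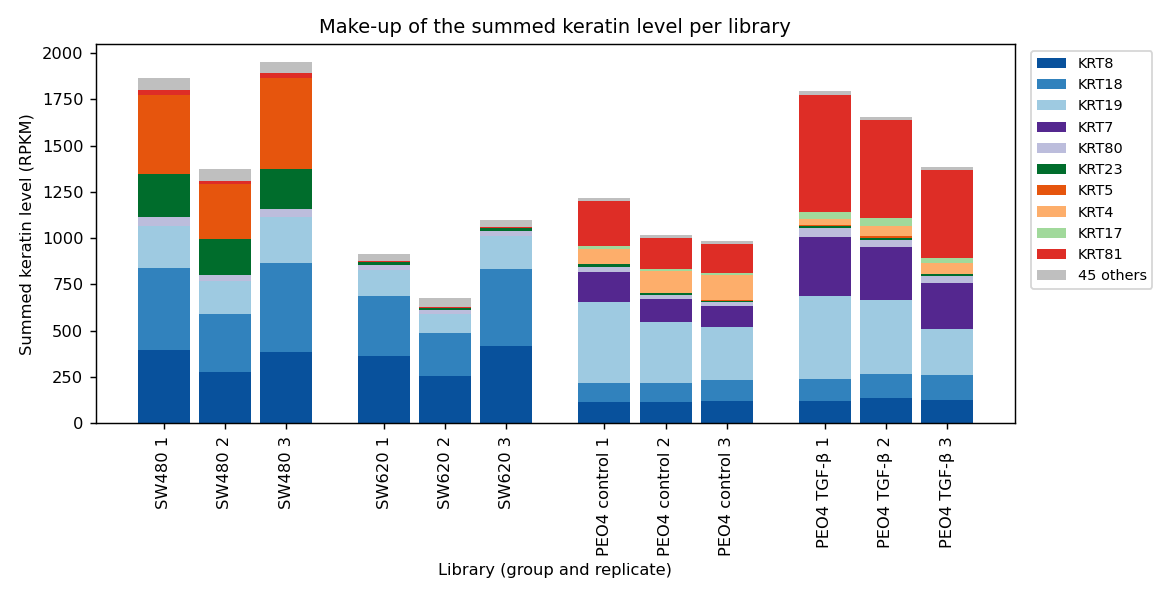
Summed RPKM of all 55 keratins in each library, stacked by gene, with the 45 keratins not named in the legend in grey. The KRT5 (orange) and KRT23 (dark green) blocks of SW480 are too thin to see or nearly so in SW620, and the KRT81 (red) and KRT7 (purple) blocks of PEO4 are larger with TGF-β.

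Because filaments pair the types, the ratio of summed type II to summed type I RPKM was also taken. It was 0.948 ± 0.0534 in SW480, 0.748 ± 0.0288 in SW620, 1.20 ± 0.107 in PEO4 control and 1.93 ± 0.249 in PEO4 TGF-β. The 3 treated PEO4 libraries (1.83, 1.75 and 2.21) were above the 3 controls (1.10, 1.20 and 1.31). The level of the ratio rests on the gene length used. With the longest coding transcript in place of merged exons, it was 1.16 in SW480 and 1.13 in SW620. KRT8 over KRT18, the main pair of simple epithelia, was 0.857 ± 0.0524 in SW480, 1.08 ± 0.0656 in SW620, 1.09 ± 0.0488 in PEO4 control and 0.996 ± 0.0640 in PEO4 TGF-β, and it was 1.27 to 1.62 with the other length. The annotated exons of KRT8 and KRT18 share 525 bases on opposite strands, and whether counting used strand is not given in the sources used here, so their counts are uncertain to that extent.

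The first comparison asked how the metastasis-derived line differs from the primary-tumour line. Most keratins tested were lower in SW620. KRT5, a keratin of basal keratinocytes, fell from 1740 ± 422 to 7.10 ± 5.39 CPM (SD, n = 3), KRT23 from 617 ± 60.9 to 38.2 ± 9.04 CPM and KRT13 from 66.1 ± 15.4 to 0.228 ± 0.184 CPM. The hair keratins KRT39 and KRT40 rose, the latter from 0.892 ± 0.229 to 47.7 ± 9.13 CPM, and KRT8, KRT18 and KRT19 did not pass the test. By edgeR's quasi-likelihood test with Benjamini-Hochberg adjustment over all genes, 20 of the 28 keratins tested passed an adjusted p of 0.05, 2 of them higher and 18 lower in SW620. Of all 20941 genes tested, 30.5% passed, 13.5% higher and 17.0% lower. The median log2 fold change of the 28 keratins was -2.41, and -2.42 with genes at the floor in SW620 set to their bound, against 0.03 over all genes tested. Of the 28, 9 were at or under the floor in every SW620 library. They reached the test through SW480 alone, so they could only be lower. With at least 10 counts required in every library, the median was -0.51 for keratins and 0.07 for all genes tested. The 6 libraries separated without overlap for 22 of the 28 keratins (4 higher, 18 lower), against 46.0% of all genes tested (22.6% higher, 23.4% lower). The other 27 keratins had too few counts to be tested.

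Markers of cell types also differed between the SW lines, where 13.5% of all genes tested were higher and 17.0% lower in SW620. Of the 4 colorectal markers tested, VIL1 (28.7 to 231 CPM, log2 fold change 3.00 ± 0.30) and CDH17 (0.612 to 3.69 CPM, 2.61 ± 0.55) rose in SW620 and none fell. WT1 was the 1 of 6 Müllerian markers that rose (4.57 to 24.2 CPM, 2.38 ± 0.21). Of 3 mesothelial markers tested, MSLN rose (23.5 to 60.8 CPM) and LRRN4 fell (27.9 to 2.47 CPM), and of 4 fibroblast markers tested, LUM rose (0.295 to 7.76 CPM) and COL1A1 fell (12.8 to 4.92 CPM). Their part in the keratin results was not tested.

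Among the simple epithelial keratins, 2 of 6 tested were lower and none was higher, against 17.0% and 13.5% of all genes tested. KRT8, the type II keratin of simple epithelia, stood at 2720, 1910 and 2640 CPM in SW480 replicates 1 to 3 and at 2490, 1780 and 2880 CPM in SW620. The 2 sets overlapped, and the log2 fold change was -0.04 ± 0.32 (SE; adjusted p 0.936 by edgeR). KRT18, its partner, was at 1330 ± 281 CPM in SW480 and 1040 ± 301 in SW620 (log2 fold change -0.37 ± 0.34, edgeR's adjusted p 0.458). KRT19, a type I keratin of simple epithelia and ducts, was at 508 ± 91.6 and 327 ± 85.9 CPM, with 1 overlapping library. Its log2 fold change was -0.65 ± 0.31 (adjusted p 0.145 by edgeR), and leaving out SW620 replicate 3 gave -1.01 (edgeR's adjusted p 0.0184). Not passing the test does not show that these 3 levels were equal. With replicate number as a block in the fit, KRT18 and KRT19 passed as lower in SW620 (edgeR's adjusted p 0.0132 and 0.000209).

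KRT23, a type I keratin of gut and pancreatic epithelium, stood at 681, 559 and 612 CPM in SW480 and at 46.4, 28.5 and 39.6 CPM in SW620. Every SW480 library was far above every SW620 library, and the log2 fold change was -4.04 ± 0.28 (adjusted p 1.45e-05 by edgeR). KRT80, a widely expressed type II keratin, was at 205, 147 and 191 CPM in SW480 and at 115, 86.6 and 110 CPM in SW620 (log2 fold change -0.84 ± 0.24, edgeR's adjusted p 0.0268). The call for KRT80 was lost without SW480 replicate 1 or 3 or SW620 replicate 1 or 2, with an adjusted p of at most 0.141.

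KRT7 and KRT20, the markers of origin, were both low in the SW lines. KRT7 was at 2.71, 5.03 and 4.70 CPM in SW480 and at 6.22, 7.71 and 14.5 CPM in SW620. Its log2 fold change was 1.21 ± 0.43 (adjusted p 0.0620 by edgeR). PEO4 carry-over in SW620 replicate 3 would give 104 of its 319 KRT7 counts with PEO4 control as donor and 288 with treated PEO4, and in SW480 replicate 1 it would give 25.5 or 52.0 of 50. Leaving out SW620 replicate 3 gave a log2 fold change of 0.59 (edgeR's adjusted p 0.204). KRT7 passed in 8 of the 18 alternatives, among them DESeq2, total counts without TMM and 1 model of all 12 libraries, with adjusted p from 5.35e-05 to 0.204 over all 18. KRT20, a marker of differentiated colonic epithelium, had 5, 2 and 5 counts in SW480 and 0, 24 and 3 in SW620, too few for the test, and 0 in all 6 PEO4 libraries, which allows up to 0.139 to 0.163 CPM per library.

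Of the 9 stratified keratins tested, 6 were lower in SW620 and none was higher, against 17.0% and 13.5% of all genes tested. Of the 6, KRT6B and KRT3 were at or under the floor in every SW620 library and could only be lower. KRT5 (ENSG00000186081, chr12:52514575-52520687), the type II keratin of basal keratinocytes, stood at 1830, 1280 and 2120 CPM in SW480 and at 8.54, 11.6 and 1.13 CPM in SW620. All 3 SW480 libraries were far above all 3 SW620 libraries. The log2 fold change was -8.10 ± 0.74 (adjusted p 6.19e-05 by edgeR). PEO4 carry-over would give 2.18 or 5.25 of the 25 counts in SW620 replicate 3. Carry-over from SW480, where KRT5 is high, could not be estimated. SW620 replicates 1 and 2 held 151 and 169 KRT5 counts, and the part of SW480 reads in them was not tested. Its usual partner KRT14 had at most 2 counts in any library, and TP63, the transcription factor that drives basal keratinocyte genes, had at most 0.0755 CPM on average in the SW lines. The markers of squamous epithelium other than keratins summed to 1.10 to 1.56 CPM in SW480 and 0.963 to 4.22 CPM in SW620, with TP63, DSG3, SPRR1B and CALML5 at or under the floor in both.

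KRT13, the type I partner of KRT4 in moist stratified epithelia, stood at 80.2, 49.6 and 68.5 CPM in SW480 and at 0.226, 0.413 and 0.0454 CPM in SW620. The log2 fold change was -8.33 ± 0.43 (adjusted p 4.08e-06 by edgeR), with no overlap. KRT4 itself was low in both lines, at 2.65, 1.84 and 2.19 CPM in SW480 and 0.113, 0 and 2.18 CPM in SW620. PEO4 carry-over would give 39.9 or 71.1 counts of KRT4 in SW620 replicate 3, where 48 were counted, and 18.4 or 6.89 of the 27 in SW480 replicate 2. The log2 fold change of KRT4 was -1.37 ± 1.08 with all libraries (edgeR's adjusted p 0.385) and -5.17 without that replicate (edgeR's adjusted p 0.000962). KRT15, a type I keratin of basal and progenitor cells, fell from 13.3 ± 3.99 to 5.74 ± 2.34 CPM (log2 fold change -1.28 ± 0.28, edgeR's adjusted p 0.00797), where carry-over would give 6.83 or 7.97 of the 80 counts in SW620 replicate 3.

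The other 3 that fell, KRT6A, KRT6B and KRT3, were near 1 CPM in SW480. KRT6A and KRT6B, keratins of wounded or activated epidermis, are near-identical paralogs, so the split of reads between them is uncertain. The KRT6A call was lost without SW480 replicate 1 or SW620 replicate 1 (edgeR's adjusted p at most 0.0795). KRT6B was at 1.42 ± 0.505 CPM in SW480 and at or under the floor in every SW620 library, which makes it at least 8.29-fold lower. KRT3, a corneal keratin, was at least 5.71-fold lower from 0.976 ± 0.258 CPM. KRT17, an injury-induced type I keratin, was at 1.65 ± 0.698 and 3.67 ± 0.859 CPM and did not pass (log2 fold change 1.13 ± 0.45, edgeR's adjusted p 0.0897). PEO4 carry-over would give 6.34 or 28.2 of its 90 counts in SW620 replicate 3 and 1.56 or 5.09 of 16 in SW480 replicate 1. KRT10, a keratin of the upper epidermal layers, was at 7.41 ± 1.08 and 6.74 ± 0.884 CPM (edgeR's adjusted p 0.680).

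Of the 13 hair and inner root sheath keratins tested, 10 were lower in SW620 and 2 were higher, against 17.0% and 13.5% of all genes tested. Of the 10, KRT71, KRT74, KRT75, KRT32, KRT35, KRT36 and KRT37 were at or under the floor in every SW620 library. They reached the test through SW480 alone and could only be lower, which limits the comparison with all genes. In SW480 most were low but clearly above the floor, and in SW620 they were at or near 0. KRT74, a type II keratin of the inner root sheath, had 343, 347 and 345 counts in SW480 and 2, 3 and 2 in SW620. That is 20.1 ± 3.07 CPM in SW480 and at least 117-fold lower in SW620 (edgeR's adjusted p 2.28e-06). KRT71, its neighbour and also of the inner root sheath, had 162, 108 and 183 counts against 3, 0 and 0 and was at least 50.1-fold lower (edgeR's adjusted p 8.24e-05). KRT75, a keratin of the companion layer of the follicle, had 34, 17 and 51 counts against 2, 2 and 1 and was at least 11.0-fold lower (edgeR's adjusted p 0.00102).

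The type I hair keratins KRT32, KRT35, KRT36 and KRT37 shared a profile across libraries as well as the direction. KRT37 had 45, 118 and 38 counts in SW480 and 0 in each SW620 library, KRT32 had 69, 167 and 56 against 1, 0 and 0, KRT35 had 25, 72 and 22 against 0, and KRT36 had 24, 57 and 16 against 1, 0 and 0. All 4 were thus highest in SW480 replicate 2, and all 4 were at or under the floor in SW620. That peak was not particular to these genes. Of the SW480 libraries, replicate 2 was also highest for KRT15 (17.8 CPM) and KRT74 (23.6 CPM). It was lowest for KRT5, KRT8, KRT18, KRT19, KRT23 and KRT80. The bounds were at least 24.3-fold for KRT37, 35.2-fold for KRT32, 14.4-fold for KRT35 and 11.7-fold for KRT36, with edgeR's adjusted p between 0.000248 and 0.00235. KRT38 did not share the high replicate, with 68, 66 and 100 counts in SW480 and 5, 1 and 1 in SW620 (log2 fold change -5.07 ± 0.59, edgeR's adjusted p 0.000240). KRT31 followed the direction with 16, 9 and 10 counts against 0 and was too low to be tested. The antisense gene AC003958.2 overlaps 575 bases of KRT37 exons and had 103, 233 and 86 counts in SW480 and 0, 1 and 1 in SW620, so reads of the pair cannot be told apart without strand. The keratin pseudogene KRT41P had 35, 69 and 26 counts in SW480 and 0, 0 and 1 in SW620.

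The 2 keratins that rose are neighbours on chromosome 17. KRT40 (ENSG00000204889, chr17:40977716-40987135), a type I hair keratin, stood at 1.03, 1.02 and 0.627 CPM in SW480 and at 43.6, 58.1 and 41.4 CPM in SW620. KRT39 (ENSG00000196859, chr17:40958417-40966892), also a type I hair keratin, stood at 4.49, 2.65 and 2.56 CPM in SW480 and at 17.9, 25.7 and 16.7 CPM in SW620. Neither overlapped between the lines. The log2 fold change was 5.69 ± 0.23 for KRT40 (adjusted p 1.57e-06 by edgeR) and 2.57 ± 0.28 for KRT39 (edgeR's adjusted p 0.000153). In SW620, KRT40 was the fifth keratin by level per length.

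KRT81 and KRT86, type II keratins of the hair cortex that are near-identical to each other and to KRT83, were both lower in SW620. KRT81 stood at 50.9, 26.4 and 50.2 CPM in SW480 and at 5.94, 4.95 and 12.8 CPM in SW620 (log2 fold change -2.42 ± 0.46, edgeR's adjusted p 0.00388). The highest of the SW620 values is replicate 3, where PEO4 carry-over would give 69.7 or 261 of 281 counts. Leaving it out gave a log2 fold change of -3.13 (edgeR's adjusted p 0.000178). KRT86 fell from 16.3 ± 3.72 to 8.71 ± 1.18 CPM (log2 fold change -0.96 ± 0.25, edgeR's adjusted p 0.0172), a call lost without SW480 replicate 1 or 3 or SW620 replicate 1.

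Along the chromosomes the lower keratins lay in runs of neighbours. On chromosome 17, KRT37, KRT38, KRT32, KRT35, KRT36, KRT13 and KRT15 are 7 consecutive keratin genes over 101.8 kb (chr17:41420753-41522529), and all 7 were lower in SW620. The next keratin, KRT19, did not pass, and KRT31 on the other side was not tested. On chromosome 12, KRT6A, KRT5, KRT71 and KRT74 are 4 consecutive keratins over 86.7 kb (chr12:52487174-52573825), all lower. KRT39 and KRT40 span 28.7 kb (chr17:40958417-40987135) and lie next to KRT23, which moved the other way. Within these runs KRT37, KRT32, KRT35, KRT36, KRT71 and KRT74 were at or under the floor in SW620 and could only be lower. The runs are a description of gene order, and 30.5% of all genes tested passed in this comparison.

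**Figure D3:**
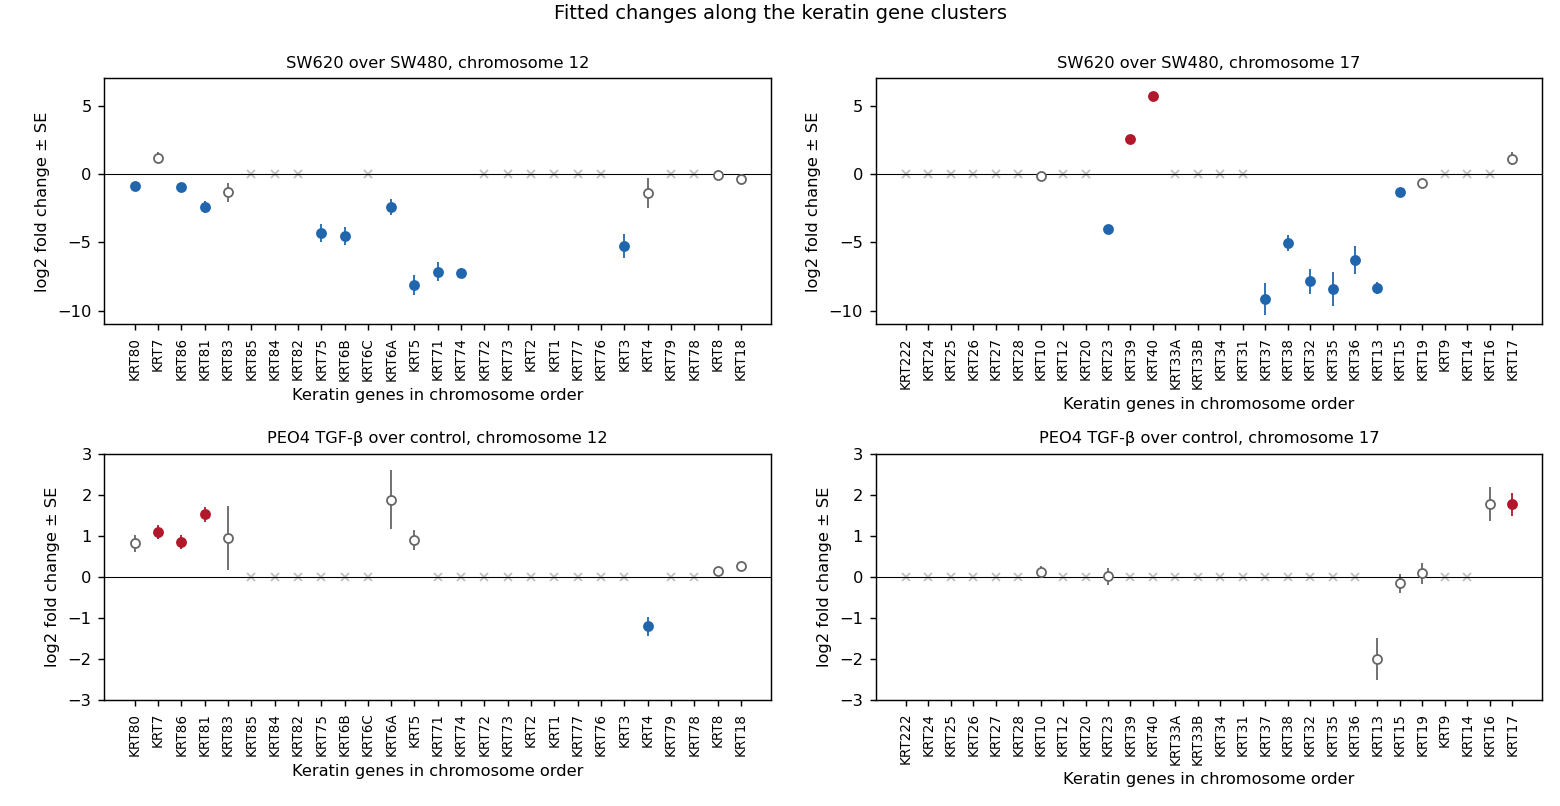
Fitted log2 fold change ± SE of the keratins in chromosome order (evenly spaced, not to scale), with SW620 over SW480 in the top row and PEO4 TGF-β over control in the bottom row, on different vertical scales; red (higher) and blue (lower) points passed an adjusted p of 0.05, open points did not, and grey crosses at 0 mark genes not tested. With KRT37 and others at the floor in SW620 placed by the prior count of the fit, the top right panel shows the 7 lower neighbours from KRT37 to KRT15 and the 2 higher ones, KRT39 and KRT40.

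To show the regulatory sequence at these neighbours, the 100 bases before the annotated start are printed for the keratins of the 3 runs that have 1 entry in the RefSeq table, 5′ to 3′ on the strand of the gene. KRT40 has 4 annotated starts there, and none of them is printed. The last base printed lies just before the start. Capitals mark ATAAA, one form of the core of a TATA box, on the gene strand, and other forms are not marked. The table is built on GRCh38.p14 and holds 38 entries for 34 of the 55 keratins. All of these genes lie on the minus strand, and the windows are chr17:41424586-41424685 for KRT37, chr17:41440984-41441083 for KRT38, chr17:41467387-41467486 for KRT32, chr17:41481152-41481251 for KRT35, chr17:41489911-41490010 for KRT36, chr12:52520395-52520494 for KRT5, chr12:52553146-52553245 for KRT71, chr12:52573844-52573943 for KRT74 and chr17:40966949-40967048 for KRT39.
KRT37: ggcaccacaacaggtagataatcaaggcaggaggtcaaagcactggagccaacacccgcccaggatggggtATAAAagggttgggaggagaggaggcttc
KRT38: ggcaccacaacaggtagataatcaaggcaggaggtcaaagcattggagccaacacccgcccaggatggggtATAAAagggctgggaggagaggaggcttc
KRT32: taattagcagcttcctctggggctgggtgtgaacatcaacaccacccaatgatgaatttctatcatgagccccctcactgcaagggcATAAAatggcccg
KRT35: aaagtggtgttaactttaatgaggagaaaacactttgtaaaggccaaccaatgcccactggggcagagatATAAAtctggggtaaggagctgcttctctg
KRT36: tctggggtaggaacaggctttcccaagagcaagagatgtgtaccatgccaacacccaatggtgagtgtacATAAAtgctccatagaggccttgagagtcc
KRT71: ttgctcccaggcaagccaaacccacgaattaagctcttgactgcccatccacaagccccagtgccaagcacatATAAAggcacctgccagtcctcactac
KRT74: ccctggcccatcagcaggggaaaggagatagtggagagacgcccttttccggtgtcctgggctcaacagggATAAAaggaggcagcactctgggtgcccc
KRT5: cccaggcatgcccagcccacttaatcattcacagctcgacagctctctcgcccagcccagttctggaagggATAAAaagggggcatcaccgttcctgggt
KRT39: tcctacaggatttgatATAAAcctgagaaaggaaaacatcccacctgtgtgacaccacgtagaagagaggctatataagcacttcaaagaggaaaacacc

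KRT37 and KRT38 were identical at 98 of these 100 positions, whereas KRT32, KRT35 and KRT36 matched KRT37 at 26, 24 and 30 positions without alignment gaps. KRT37 and KRT38 nevertheless differed in which SW480 replicate was highest. The first base of ATAAA lay at -29 from the start in KRT37, KRT38, KRT5 and KRT74, and at -30 in KRT35 and KRT36. It lay at -27 in KRT71, at -13 in KRT32 and at -84 in KRT39. The KRT39 window also holds tatataag nearer the start, which does not contain ATAAA and is not marked. ATAAA on either strand was found in 31 of the 38 keratin windows (4 of the 38 belong to KRT40 and 2 to KRT85) and in 15.4% of all 35116 windows of the table. The longer TATAAA, which always contains ATAAA, was found in 18 keratin windows and in 4.99% of all. GGGCGG, the core of a GC box, was found in 3 keratin windows and in 31.3% of all, and TGANTCA, the AP-1 site, in 0 of the keratin windows and 2.75% of all. The search covered both strands, and the matches are a description of letters in these windows.

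The second comparison asked what TGF-β does to PEO4. KRT81, a hair cortex keratin, rose from 367 ± 91.9 to 1050 ± 154 CPM (SD, n = 3), KRT7 from 546 ± 95.5 to 1160 ± 141 CPM and KRT17 from 33.4 ± 11.5 to 113 ± 27.6 CPM. KRT4 fell from 375 ± 94.1 to 161 ± 47.0 CPM, and KRT8, KRT18 and KRT19 did not pass the test. Of 17 keratins tested, 5 passed the same edgeR test, 4 of them higher and 1 lower with TGF-β. Of all 19064 genes tested, 2.26% passed, 1.27% higher and 0.991% lower. The median log2 fold change was 0.82 over the 17 keratins and -0.02 over all genes tested. Over the alternatives the keratin median ran from 0.19 (no filter) to 0.91 (without TGF-β replicate 3). It was 0.2 by DESeq2, 0.35 without control replicate 3 and 0.55 with at least 10 counts in every library. The libraries did not overlap for 10 of the 17 (8 higher, 2 lower), against 20.7% of all genes tested (10.4% higher, 10.3% lower), and 11 of the 17 had an unadjusted p under 0.05.

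These calls depended on single libraries. Without PEO4 control replicate 2 no keratin passed (72 of all genes did), without PEO4 TGF-β replicate 2 only KRT81 did, without TGF-β replicate 1 there were 2, without control replicate 3 there were 3, and without control replicate 1 there were 8. None of the 5 called keratins changed its direction in any alternative run, and DESeq2 called 9.

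KRT7 (ENSG00000135480, chr12:52232520-52252186), the type II keratin of ducts and of the female genital tract, stood at 656, 502 and 481 CPM in control replicates 1 to 3 and at 1300, 1160 and 1020 CPM with TGF-β. Every treated library was above every control, and the log2 fold change was 1.10 ± 0.16 (adjusted p 0.0114 by edgeR). The adjusted p was 0.165 at most over the alternatives, in the fit of all 12 libraries in 1 model. The exons of KRT7 overlap 282 bases of its antisense gene KRT7-AS, which had 345, 439 and 402 counts in control and 494, 635 and 590 with TGF-β, far under the 9264 to 26680 counts of KRT7.

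KRT81 (ENSG00000205426, chr12:52285913-52291534), a hair cortex keratin, stood at 473, 322 and 306 CPM in control and at 1220, 1020 and 914 CPM with TGF-β. The groups were well apart, and the log2 fold change was 1.53 ± 0.19 (adjusted p 0.00651 by edgeR). Its paralog KRT86 stood at 4.28, 3.68 and 4.06 CPM in control and 8.08, 6.47 and 6.92 CPM with TGF-β (log2 fold change 0.85 ± 0.17, edgeR's adjusted p 0.0413). The 2 genes are near-identical and KRT81 was far more abundant, so the KRT86 counts are uncertain. How multiply mapping reads were treated is not given in the sources used here. The third paralog KRT83 had 14, 6 and 0 counts in control and 15, 16 and 11 with TGF-β and did not pass (edgeR's adjusted p 0.595). KRT7, KRT86 and KRT81 are 3 consecutive keratin genes over 59.0 kb (chr12:52232520-52291534).

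Among the stratified keratins, KRT17 rose and KRT4 fell. KRT17 stood at 43.8, 35.2 and 21.1 CPM in control and at 118, 139 and 84.0 CPM with TGF-β, without overlap (log2 fold change 1.78 ± 0.28, edgeR's adjusted p 0.0162). KRT16, which is induced with KRT17 and KRT6 in injured skin and lies beside KRT17, stood at 5.28, 4.12 and 1.71 CPM and at 16.9, 13.6 and 7.48 CPM. The groups of KRT16 did not overlap, but the test was not passed (log2 fold change 1.79 ± 0.42, edgeR's adjusted p 0.0648). KRT6A was at 23, 3 and 9 counts in control and 86, 28 and 22 with TGF-β, with 1 overlapping library (edgeR's adjusted p 0.232).

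KRT4 (ENSG00000170477, chr12:52806549-52814551), the type II keratin of moist stratified epithelia, stood at 271, 397 and 455 CPM in control and at 107, 183 and 193 CPM with TGF-β. Every treated library was below every control (log2 fold change -1.20 ± 0.23, edgeR's adjusted p 0.0303). KRT13, its partner, was far lower in level, at 0.897, 1.25 and 2.35 CPM and 0.341, 0.555 and 0.186 CPM (log2 fold change -2.0 ± 0.52, edgeR's adjusted p 0.0921), and SW480 carry-over would give 4.85 of its 48 counts in control replicate 3. KRT5 was at 8.42, 14.0 and 12.1 CPM in control and at 16.7, 29.2 and 17.6 CPM with TGF-β, and it did not pass (log2 fold change 0.91 ± 0.25, edgeR's adjusted p 0.116). Carried-over SW480 reads would give 128 of the 247 KRT5 counts of control replicate 3, and leaving that library out gave 0.93. KRT14 was not above the floor, and KRT15 stood at 36.0 ± 8.03 and 32.1 ± 9.34 CPM (edgeR's adjusted p 0.798).

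Of the 6 simple epithelial keratins tested, KRT7 alone passed, against 2.26% of all genes tested. KRT8 stood at 791, 791 and 829 CPM in control and 837, 922 and 871 CPM with TGF-β (log2 fold change 0.14 ± 0.09, edgeR's adjusted p 0.451). KRT18 stood at 346 ± 25.2 and 413 ± 37.4 CPM (log2 fold change 0.27 ± 0.09, edgeR's adjusted p 0.171), and KRT19 at 816 ± 189 and 855 ± 245 CPM (log2 fold change 0.09 ± 0.25, edgeR's adjusted p 0.896). KRT80 was at 134, 98.9 and 81.0 CPM in control and 213, 178 and 160 CPM with TGF-β, without overlap, and did not pass (log2 fold change 0.82 ± 0.20, edgeR's adjusted p 0.0684). KRT80 passed in 6 of 18 alternatives, among them DESeq2 and the fit without control replicate 1. KRT23 was at 29.0 ± 4.20 and 29.1 ± 7.56 CPM, and SW480 carry-over would give 45.3 of its 520 counts in control replicate 3.

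**Figure D4:**
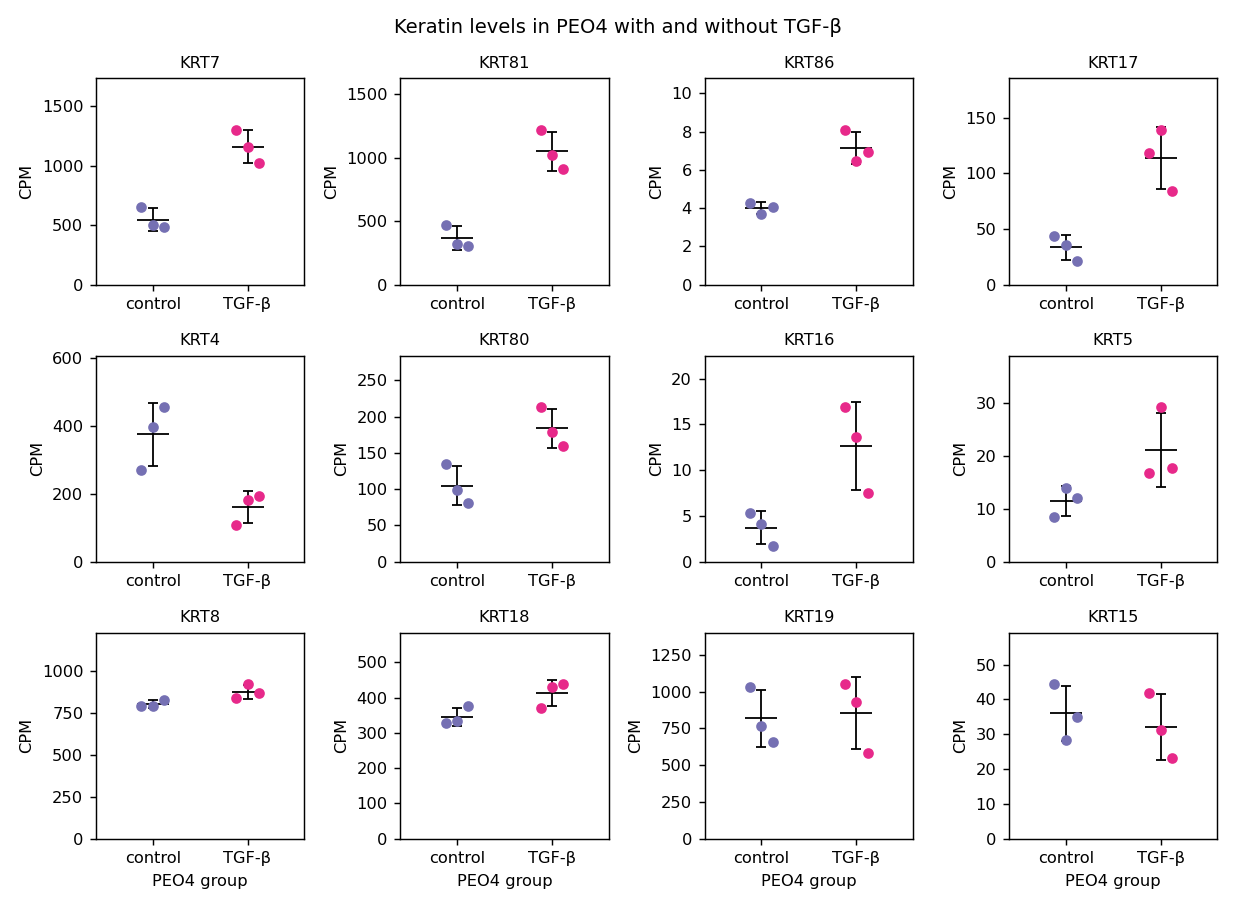
CPM of 12 keratins in the 3 control and 3 TGF-β libraries of PEO4, each axis starting at 0, with points for libraries in the order of their replicate numbers and bars for mean ± SD. KRT7, KRT81, KRT86, KRT17, KRT80, KRT16 and KRT5 lie higher in all 3 treated libraries and KRT4 lies lower in all 3. KRT18, KRT19 and KRT15 overlap, and KRT8 does not, but it did not pass the test.

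Among the genes around the keratins, the markers of squamous epithelium apart from keratins summed to 251 to 285 CPM in PEO4 control and to 324 to 336 CPM with TGF-β. Most of that sum was DSC3, a desmosomal cadherin, at 247 and 271 CPM, which did not pass (log2 fold change 0.15 ± 0.08, edgeR's adjusted p 0.407). IVL (involucrin, of the cornified envelope) rose from 16.2 to 54.1 CPM (log2 fold change 1.75 ± 0.37, edgeR's adjusted p 0.0459). It alone of the 3 squamous markers tested passed, against 1.27% of all genes tested that were higher. DSG3 and SPRR1B were at or under the floor in both. The sum was higher with TGF-β, as KRT17 and KRT81 were, while KRT4 was lower. Of 5 Müllerian markers tested, WT1 (197 to 141 CPM) and EMX2 (100 to 70.5 CPM) were lower by edgeR and none was higher. Of all genes tested, 0.991% were lower. MUC16 stood at 5190 and 2140 CPM and did not pass (edgeR's adjusted p 0.0701). The part of these markers in the result was not tested.

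The ovarian line was also set against the 2 colorectal lines, to show where their keratin profiles differ. Tissue, donor and growth medium cannot be told apart there, and the comparison shares its PEO4 control and SW libraries with those above. KRT7, KRT4 and KRT81 were higher in PEO4 control, and KRT8 and KRT18 were higher in the SW lines. In an edgeR fit of PEO4 control against the mean of SW480 and SW620, 20 of 29 keratins tested passed, 8 higher and 12 lower in PEO4, against 58.0% of all 22936 genes tested (28.9% higher, 29.1% lower). The libraries did not overlap for 14 of the 29 (8 higher, 6 lower), against 45.6% of all genes tested (17.7% higher, 27.9% lower). Among the 12 lower, KRT74, KRT71, KRT75, KRT38 and KRT36 were at or under the floor in every PEO4 control library. So were KRT37, KRT32, KRT35, KRT6B and KRT3, which did not pass. All of these reached the test through SW480 alone, so they could only be lower in PEO4.

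The 8 higher in PEO4 control were KRT4, KRT7, KRT81, KRT17, KRT16, KRT15, KRT19 and KRT10. KRT7, at 546 ± 95.5 CPM in PEO4 control and at most 14.5 CPM in any SW library, differed by 6.70 ± 0.32 on the log2 scale (edgeR's adjusted p 5.44e-09). KRT4, at 375 ± 94.1 CPM and at most 2.65 CPM in any SW library, differed by 8.29 ± 0.54 (edgeR's adjusted p 7.46e-08). By the estimates given above, the SW counts of KRT7, KRT4, KRT81, KRT17 and KRT15 may include carried-over PEO4 reads. Their part in these differences was not tested. KRT81 differed by 4.57 ± 0.35, KRT17 by 4.03 ± 0.30, KRT16 by 3.66 ± 0.48 and KRT15 by 2.37 ± 0.21 (edgeR's adjusted p 3.52e-05 or less).

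Of the 12 lower in PEO4, KRT8 and KRT18 were lower in every PEO4 control library than in every SW library (fitted log2 differences -1.32 ± 0.25 and -1.52 ± 0.27, edgeR's adjusted p 0.000599 and 0.000412). KRT39 and KRT40 were near the floor in PEO4, with at most 6 and 7 counts in a control library (differences -4.98 ± 0.37 and -4.93 ± 0.37). Of those 7 KRT40 counts, in control replicate 3, carried-over SW620 reads would give 9.22, and they would give 3.89 KRT39 counts there, where 3 were counted. KRT5 and KRT23 also passed (-2.96 ± 0.49 and -2.13 ± 0.23), but their PEO4 levels overlapped those of SW620. KRT5 was at 11.5 ± 2.85 CPM in PEO4 control, against 1740 ± 422 in SW480 and 7.10 ± 5.39 in SW620. KRT23 was at 29.0 ± 4.20 CPM, against 617 ± 60.9 and 38.2 ± 9.04. KRT74, KRT71, KRT75, KRT38, KRT36 and KRT86 completed the 12, the first 5 of them detected in SW480 alone beyond a few counts. The KRT36 call was lost in 6 of 20 alternatives, with the GC correction and without SW480 replicate 1, SW620 replicate 1 or any 1 of the PEO4 control replicates, and the KRT71 call without SW620 replicate 1 (edgeR's adjusted p 0.967).

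**Figure D5:**
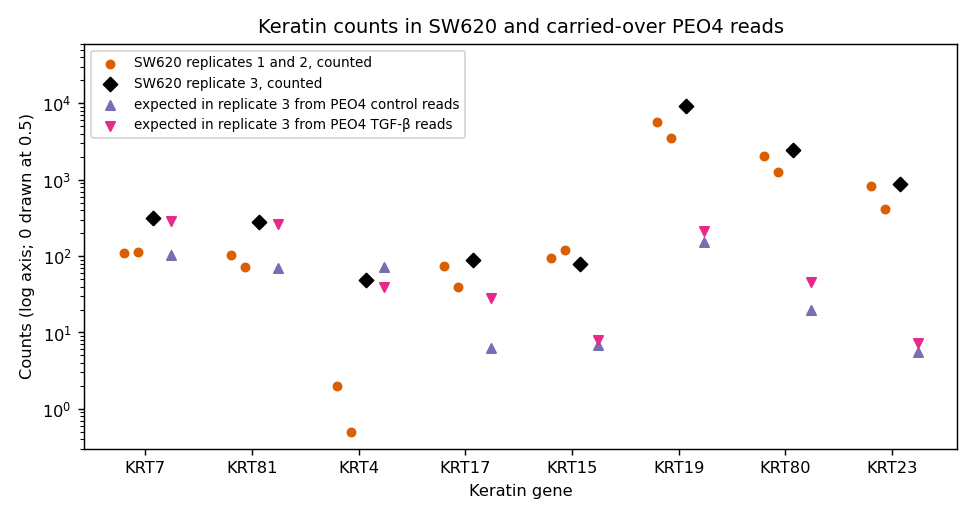
Counts of 8 keratins in the SW620 libraries, on a log axis, beside the counts that carried-over PEO4 reads would give in replicate 3. For KRT7, KRT81 and KRT4 the expected counts (triangles) come close to the counted 319, 281 and 48 (diamonds) for at least 1 donor, and for KRT19, KRT80 and KRT23 they are far below.

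Genes around the keratins were read from the same fits in 3 lists. Of 15 other intermediate filament genes, 10 were tested in the SW pair, and 5 were lower in SW620 and none higher, where 17.0% of all genes tested were lower and 13.5% higher. VIM (vimentin, of mesenchymal cells) fell from 317 to 156 CPM (log2 fold change -1.07 ± 0.19, edgeR's adjusted p 0.00295), SYNM (synemin) from 14.8 to 1.86 CPM (-3.06 ± 0.24) and LMNA (lamin A/C of the nucleus) from 411 to 203 CPM (-1.04 ± 0.23), and DES and PRPH were the other 2. In PEO4, none of 8 tested passed by edgeR, against 2.26% of all genes, and VIM stood at 10.6 CPM in control and 31.3 CPM with TGF-β (log2 fold change 1.57 ± 0.52, adjusted p 0.179).

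Of 18 genes that anchor or link keratins, 2 were higher and 7 lower in SW620, against 13.5% and 17.0% of all genes tested. DSP (desmoplakin, which ties keratins to desmosomes) rose from 422 to 725 CPM (log2 fold change 0.74 ± 0.20) and DST from 136 to 368 CPM (1.38 ± 0.20), while JUP (plakoglobin) fell from 329 to 146 CPM (-1.19 ± 0.27) and PLEC (plectin) from 2280 to 1020 CPM (-1.20 ± 0.20). PKP1, PKP4, EPPK1, PPL and MACF1 also fell. None of the 18 passed in PEO4 by edgeR, against 2.26% of all genes.

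Of 15 epithelial transcription factors, 11 were tested in the SW pair, with 2 higher and 3 lower, against 13.5% and 17.0% of all genes tested. HNF4A, a regulator of gut and liver epithelium, rose from 19.7 to 204 CPM (log2 fold change 3.36 ± 0.22, edgeR's adjusted p 1.04e-05) and ELF3 from 18.8 to 49.7 CPM (1.39 ± 0.20). TFAP2C, an AP-2 factor, fell from 20.6 to 0.466 CPM (log2 fold change -5.35 ± 0.52, edgeR's adjusted p 8.76e-05), and GRHL1 and OVOL2 fell too. None of the 12 tested in PEO4 passed by edgeR, against 2.26% of all genes.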

How the data were processed

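The authors deposited whole-number counts per gene for 57500 Ensembl genes in 12 libraries. The submitters' processing notes name Trimmomatic 0.36, STAR 2.5.2b, featureCounts, Subread 1.5.2, DESeq2 and GRCh38. The options, the annotation and the use of strand are not given in the sources used here. All 12 sample columns were matched to labels, and the deposited tables of differential expression were not used.

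Counts were tested with edgeR 4.0.16 in R 4.3.3 (filterByExpr, TMM scaling, quasi-likelihood test, two-sided, Benjamini-Hochberg adjustment over all genes tested, threshold 0.05), each comparison on its own libraries and without covariates. A run on simulated counts used the same dispersion for every gene and changed only genes well above the floor. It therefore does not bear on keratins near 0 counts in a group. Only the keratin rows and the fixed lists were read out. CPM used total counts, and RPKM used merged exon lengths of GENCODE 29 (GRCh38). The SE is the log2 fold change divided by the square root of the F statistic. A fold against a group with at most 3 counts in every library is a bound against 3 counts per library, and the floor covers counting error only. Carry-over was estimated from genes with at least 50 CPM in every donor library and at most 3 counts in every other recipient library, where at least 3 such genes were found.

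Keratins are named with values if they passed the threshold with a mean of at least 1 CPM in the higher group, were among the 5 highest per length in a group, or are KRT7, KRT8, KRT18, KRT19, KRT20, KRT5, KRT14 or KRT17. KRT6A, KRT31, KRT3, KRT83, KRT13 in PEO4, KRT80 in PEO4 and KRT16 were added after their values were seen. The members and lists were chosen with earlier results of these data known. Alternatives were other scalings, DESeq2 1.42.0, limma-voom (limma 3.58.1), other filters, 1 model of all libraries, pseudogene rows added to their parents, a replicate block, a GC correction and each library left out.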

Additional observations from a re-analysis of the deposited data

How the results depend on the processing

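The SW result kept its direction, with 17 to 23 keratins called when a library was left out (2 to 4 higher, 15 to 21 lower; 4253 to 7419 of all genes). It had 4 higher with all 12 libraries in 1 model, and 6 lower (8 in all) with at least 10 counts in every library, a filter that removes keratins absent from SW620. For PEO4, DESeq2 called 7 higher and 2 lower (9; 922 of all genes), no filter 8 and 2 (10; 1457), and all 12 libraries in 1 model 1 and 0 (1; 165); leaving out a library gave 0 to 6 higher, 0 to 2 lower, 0 to 8 in all and 72 to 1080 of all genes. The GC correction lost KRT86 there. For PEO4 control against the SW lines, at least 10 counts in every library gave 5 lower and 11 in all, and total counts alone moved the median of all genes by -0.28.

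With the replicate block, the SW pair had 4 higher keratins (10667 of all genes, against 6385 without it), or 4 (11065) with the GC correction as well. The PEO4 pair had 9 higher, 2 lower and 11 in all (2102, against 431 without the block), or 8, 2 and 10 (1949). In the SW pair the block added KRT7 and KRT17 as higher and KRT4, KRT18, KRT19 and KRT83 as lower. In PEO4 it added KRT18, KRT80, KRT16, KRT5 and KRT6A as higher and KRT13 as lower. Same-numbered samples deviated together with r of 0.020, 0.662 and 0.561 (SW) and 0.292, -0.137 and 0.482 (PEO4). Samples of unlike number had r of at most 0.268 (SW) and 0.241 (PEO4). SW replicates 2 and 3 thus correlated best with their own number, while SW replicate 1 and PEO4 replicate 2 did not. The labels do not say that the numbers are pairs, and the main fits did not take them as pairs. 

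Directions turned only for keratins not called. KRT8 in the SW pair was at 0.03 with the GC correction, 0.01 with it and the block, and -0.34 to 0.24 with a library left out (0.08, 0.07, 0.00228 and 0.24 without SW480 replicate 1 or 3 or SW620 replicate 1 or 2). KRT10 was at -0.34 to 0.04 there (0.04 without SW620 replicate 2). In PEO4, KRT23 was at -0.000274 (upper quartile), -0.01 (limma-voom), -1.18e-05 (block), -0.02 (block and GC), and -0.08, -0.14 and -0.04 without control replicate 3 or TGF-β replicate 1 or 2 (at most 0.24). KRT19 was at -0.000876 (GC), -0.02 (block and GC), and -0.06 and -0.09 without control replicate 3 or TGF-β replicate 1 (at most 0.33), and KRT15 at 0.07 and 0.06 without control replicate 1 or TGF-β replicate 3 (at least -0.39). The cause was not tested.

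With the longest coding transcript as length, summed levels were 3300, 1930, 1850 and 2650 RPKM in SW480, SW620, PEO4 control and PEO4 TGF-β, type II over type I was 1.16 and 1.13 in the SW lines, and KRT8 over KRT18 was 1.27, 1.61, 1.62 and 1.48. TMM-scaled totals gave 1850 RPKM in PEO4 TGF-β. A recipient limit of 1 count gave 0.257% for SW480 reads in PEO4 control replicate 3. Depth limits the 27 keratins too low to test in the SW pair.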

Other observations

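Rows of processed pseudogenes named after keratins also held counts. The 50 pseudogene rows of KRT8 summed to 0.683 to 2.04% of the KRT8 counts of a library, and the 67 rows of KRT18 to 0.589 to 4.50% of the KRT18 counts. The 8 rows of KRT17 summed to 0.133 to 25% of the KRT17 counts in libraries with more than 20 of them, and the 6 rows of KRT16 to 1.71 to 7.89%. Adding these rows to their parents left 5 keratins called in PEO4.

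The fibroblast list and the leukocyte list each summed to at most 19.0 CPM in any library. The 6 fibroblast markers summed to 14.6 to 16.3 CPM in SW480, 12.7 to 19.0 in SW620, 6.45 to 7.32 in PEO4 control and 8.33 to 12.6 in PEO4 TGF-β. The 5 leukocyte markers summed to 1.15 to 2.06, 1.30 to 15.2, 10.7 to 15.5 and 5.78 to 7.35 CPM in the same order. The 5 mesothelial markers summed to 704 to 852 CPM in PEO4 control and 384 to 437 CPM with TGF-β. Most of it was MSLN (597 and 345 CPM on average) and UPK3B (170 and 61.1 CPM). These 2 of the 3 tested were lower with TGF-β by edgeR, against 0.991% of all genes tested.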
